A study of Mus musculus with 8 samples.

Results

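The let-7 family was followed in mouse liver during repeated injury with carbon tetrachloride (CCl4), a hepatotoxin that is used to provoke liver fibrosis. Its members were taken by assay name from a quantitative PCR card, and comprised let-7a, let-7b, let-7c, let-7d, let-7e, let-7f, let-7g and let-7i, 8 of the 381 assays listed. Total RNA came from whole livers of female C57B6 mice that were 4 weeks old when treatment began. One group was untreated, with the treatment given as none and no vehicle stated. The other 3 had CCl4 in corn oil injected intraperitoneally, 2 times a week, for 1, 4 or 8 weeks. The labels give the dose as 1 mg/kg, whereas the methods give the same figure in ml/kg. Each group had 2 cards, 8 in all. The labels do not say that the 2 replicates of a group were separate mice, and the series text gives 4, 3 and 2 mice for the treated groups, so the p-values measure the spread between these cards, which may be technical. The age of the untreated mice at harvest was not given, and age and time on CCl4 cannot be told apart.

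Loaded into an Argonaute protein, a microRNA (a short RNA) pairs in part with messenger RNAs and lowers their output. The let-7 family is named after a Caenorhabditis elegans gene that controls developmental timing. In mammals its members accumulate as cells differentiate, target growth-associated messages such as Hmga2, Lin28 and members of the Ras family, and are held down in stem cells by the LIN28 proteins, which block the maturation of let-7 precursors. Pairing to a target rests mainly on the seed, the bases next to the 5′ end of the microRNA, and family members share it while the rest of the sequence differs.

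The mature sequences are shown because members that share 1 seed are read on the card by 8 separate assays. All 8 names were matched to RefSeq (GRCm38.p6), where 11 genes encode them. Each sequence is written 5′ to 3′ and is 22 bases long, and capitals mark the seed, bases 2 to 8. The seed GAGGUAG is present at these positions in 11 of 1679 mature mouse entries of the RefSeq table (0.655%). Entries with the same name and sequence were counted once, so let-7c and let-7f count once each although each has more than 1 gene. The count includes the 8 members and miR-98, and also entries that are not listed here. The related miR-98, which carries the same seed and is counted by many catalogues as a let-7 microRNA, is added for comparison.
let-7a: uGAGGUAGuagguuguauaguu
let-7b: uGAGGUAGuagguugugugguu
let-7c: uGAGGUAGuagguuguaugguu
let-7d: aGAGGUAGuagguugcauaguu
let-7e: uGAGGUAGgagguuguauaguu
let-7f: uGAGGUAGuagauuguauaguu
let-7g: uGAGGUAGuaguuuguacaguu
let-7i: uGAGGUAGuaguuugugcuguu
miR-98: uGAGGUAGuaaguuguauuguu

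Counted from the 5′ end and set against let-7a, let-7c differed by A19G, let-7e by U9G and let-7f by G12A. The changes were A17G and A19G in let-7b, U1A and U16C in let-7d, and G12U and U18C in let-7g. With G12U, A17G, U18C and A19U, let-7i was the most distant from let-7a. Over the 28 pairs of members the number of differing bases ran from 1 to 6, with 1 difference in 4 pairs and 2 in 8 pairs. Assays for sequences this close could pick up one another's template, and this cross-reaction was not tested.

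In the mouse genome (GRCm38.p6) the members lie in several groups of microRNA genes. On chromosome 13, let-7a is encoded by Mirlet7a-1 (mature strand at chr13:48538239-48538260, minus strand), 261 bases from Mirlet7f-1 and 2064 bases from Mirlet7d. On chromosome 15, Mirlet7c-2 and Mirlet7b are 621 bases apart within the non-coding gene Lncppara, with mature let-7b at chr15:85707325-85707346 on the plus strand. On chromosome 17, Mirlet7e (mature strand at chr17:17830366-17830387, plus strand) lies within Spaca6, 94 bases from Mir99b and 367 bases from Mir125a. Mirlet7c-1 is 656 bases from Mir99a on chromosome 16, Mirlet7a-2 is 5211 bases from Mir100 on chromosome 9, and Mirlet7f-2 is 785 bases from Mir98 within Huwe1 on chromosome X. The mature let-7g is read from within Wdr82 (chr9:106178846-106178867, plus strand), and let-7i (chr10:122985698-122985719, minus strand) has no other microRNA gene within 10 kb. An assay for a mature sequence cannot tell which of its genes the RNA came from, which applies to let-7a, let-7c and let-7f.

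The threshold cycle (Ct) of an assay is the PCR cycle at which its signal crosses a threshold, and it falls by about 1 when the template doubles. Every member was determined on all 8 cards. On the untreated cards let-7g had the lowest Ct of the family (24.7 and 24.7), followed by let-7e (25.4 and 26.3) and let-7i (26.9 and 27.0), and let-7b had the highest (29.4 and 30.3). Ct values of different assays also depend on how well each assay amplifies, so this order is not an order of amounts. To set cards side by side, each Ct was subtracted from its card's mean over the 149 assays that stayed below Ct 35 throughout, which gives the levels below, where 1 unit is 1 step on the log2 scale.

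A Ct was obtained for 193 to 235 assays per card, and the mean Ct over the 149 assays ran from 27.5 to 29.8, with 2 cards of a group up to 1.52 apart. The hepatocyte microRNA miR-122, which marks the labelled tissue, was detected at a low Ct (mean 22.8). All 8 members were among the 166 assays tested. In whole liver, fewer cells that make a microRNA and less of it per cell cannot be told apart.

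At 1 week of CCl4 every let-7 member was below its untreated level. Averaged over the 8 members, the untreated cards read 1.03 and 0.16, the 1 week cards -0.86 and -0.65, the 4 week cards 0.67 and 0.87, and the 8 week cards 0.50 and 1.33. The 1 week cards alone lay below the untreated range. By 4 weeks let-7b, let-7c and let-7i lay above both untreated cards, let-7a, let-7d and let-7e lay in or around the untreated range, and let-7f and let-7g lay below it.

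The level of let-7a read 0.23 and -0.56 on the untreated cards, then -2.25 and -1.61 on the 1 week cards, -0.21 and 0.04 on the 4 week cards, and -0.24 and 0.61 on the 8 week cards. The 1 week cards were the lowest of all, and the other 3 groups overlapped. The change at 1 week was -1.77 on the log2 scale (SE 0.43, n = 2 cards a group), 0.294 of the untreated level, and passed the limma test across all assays (adjusted p = 0.0190). It did not pass with no normalization (-2.28, limma adjusted p = 0.148). With single cards left out the change lay between -2.18 and -1.42.

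For let-7f the levels were 0.06 and -0.13 on the untreated cards, then -1.13 and -1.06 on the 1 week cards, -0.94 and -1.21 on the 4 week cards, and -0.57 and -0.27 on the 8 week cards. Every treated card lay below both untreated cards. The 1 week and 4 week cards overlapped and the 8 week cards lay between them and the untreated ones. let-7f fell by 1.06 at 1 week (SE 0.28, limma adjusted p = 0.0258) and by 1.03 at 4 weeks (limma adjusted p = 0.0267), and its difference at 8 weeks was -0.38 (limma adjusted p = 0.374). With the control RNAs the 4 week change was -0.39 (limma adjusted p = 0.429). It was -1.31 with cards centred on all determined assays and -1.03 with only the groups compared, and neither passed (limma adjusted p = 0.0772 and 0.0740). With single cards left out it lay between -1.17 and -0.90. The 1 week call did not pass without any one of the 4 cards compared (limma adjusted p from 0.0644 to 0.125).

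The level of let-7g read 3.64 and 3.33 on the untreated cards, then 2.55 and 2.65 on the 1 week cards, 2.18 and 1.80 on the 4 week cards, and 2.96 and 2.46 on the 8 week cards. As with let-7f, all treated cards were below the untreated cards, but here the 4 week cards were the lowest. The difference was -0.89 at 1 week (SE 0.31, limma adjusted p = 0.0640). let-7g fell by 1.49 at 4 weeks, to 0.356 of the untreated level (SE 0.31, limma adjusted p = 0.0110), and differed by -0.77 at 8 weeks (limma adjusted p = 0.172).

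For let-7c the levels were 0.40 and -1.35 on the untreated cards, then -2.67 and -2.37 on the 1 week cards, 0.57 and 0.98 on the 4 week cards, and -0.0058 and 1.69 on the 8 week cards. The 1 week cards were the lowest and the 4 week cards lay above both untreated cards, although the untreated pair itself was 1.74 apart. The difference from untreated was -2.05 at 1 week (SE 0.69, limma adjusted p = 0.0579), the most negative point estimate of the family, then 1.26 at 4 weeks (limma adjusted p = 0.204) and 1.32 at 8 weeks (limma adjusted p = 0.255).

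The level of let-7b, whose gene is next to Mirlet7c-2 on chromosome 15, read -1.07 and -2.30 on the untreated cards, then -3.60 and -3.36 on the 1 week cards, -0.90 and 0.18 on the 4 week cards, and -1.66 and 0.46 on the 8 week cards. As with let-7c, the 1 week cards were the lowest and the 4 week cards lay above the untreated ones, with the 8 week cards spread from the untreated range to above the 4 week cards. The difference from untreated was -1.80 at 1 week (SE 0.74, limma adjusted p = 0.102), 1.33 at 4 weeks (limma adjusted p = 0.206) and 1.09 at 8 weeks (limma adjusted p = 0.351). The spread between replicate cards was larger for let-7b (SD 0.95 over the 4 groups) and let-7c (0.88) than for the other members (0.16 for let-7f to 0.61 for let-7e), and the median over all tested assays was 0.39.

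For let-7e the levels were 2.96 and 1.69 on the untreated cards, then 0.63 and 1.02 on the 1 week cards, 2.47 and 2.79 on the 4 week cards, and 2.31 and 3.36 on the 8 week cards. The level of let-7d read 0.55 and -0.38 on the untreated cards, then -1.12 and -1.04 on the 1 week cards, 0.26 and 0.81 on the 4 week cards, and -0.32 and 0.88 on the 8 week cards. In both, the 1 week cards were the lowest and the other groups overlapped. At 1 week the difference was -1.50 for let-7e (SE 0.51, limma adjusted p = 0.0589) and -1.17 for let-7d (SE 0.49, limma adjusted p = 0.105). Their differences at 4 and 8 weeks lay between 0.20 and 0.51, each smaller than or about equal to its standard error.

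Against untreated, let-7i had the smallest change at 1 week. Its levels were 1.48 and 0.98 on the untreated cards, then 0.78 and 0.62 on the 1 week cards, 1.89 and 1.55 on the 4 week cards, and 1.46 and 1.42 on the 8 week cards. The 1 week cards lay below and the 4 week cards above the untreated pair, and the 8 week cards lay within it. The differences from untreated were -0.53, 0.50 and 0.21 at the 3 times (SE 0.30), with limma adjusted p-values of 0.208, 0.241 and 0.659.

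**Figure D1:**
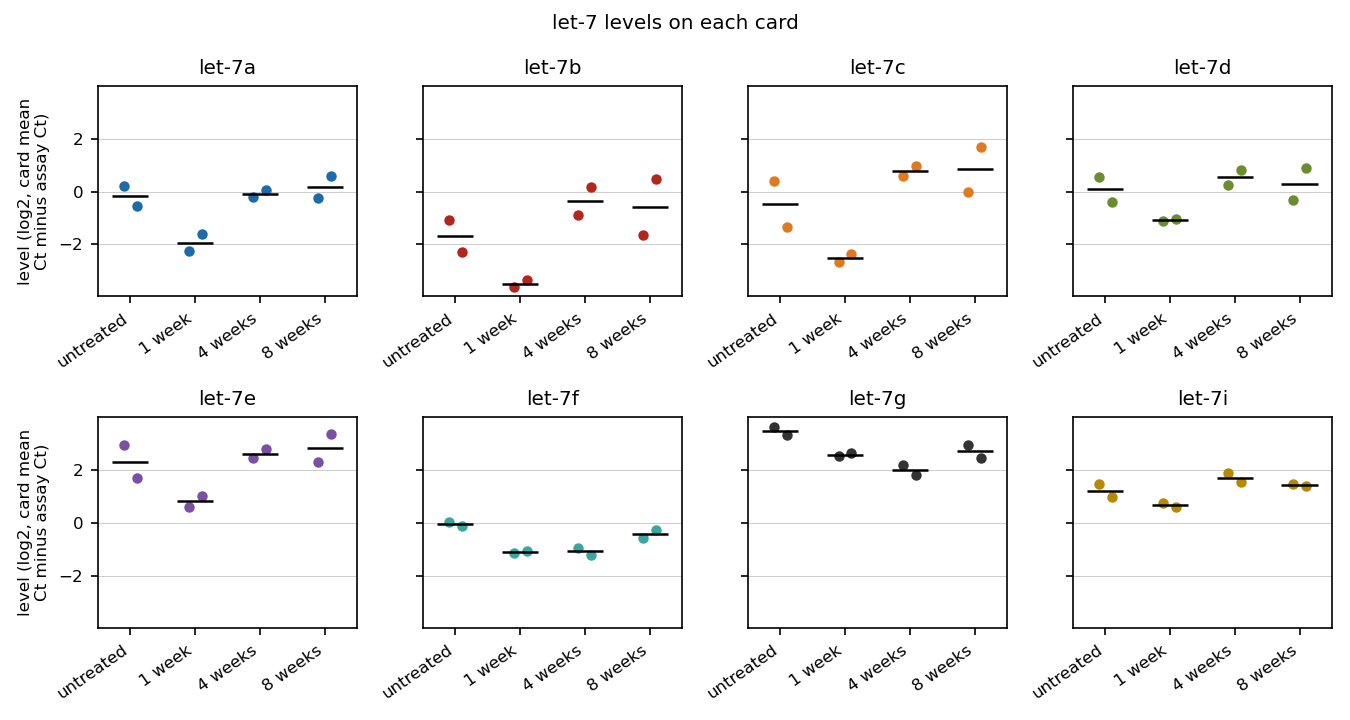
Level of each let-7 member on each card (vertical axis, log2 scale, mean Ct of the card over 149 assays minus the Ct of the assay) in untreated liver and after 1, 4 and 8 weeks of CCl4. Points are the 2 cards of a group, with replicate 1 on the left, and bars are their means; the 1 week cards are the lowest of the row for 6 members, while let-7g is lowest at 4 weeks and the 1 and 4 week cards of let-7f overlap.

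Counted over the family, 8 of 8 members were below the untreated level at 1 week and 2 (let-7a and let-7f) passed the test, when 14.5% of all tested assays were called lower. At an unadjusted p under 0.05 the number was 7 of 8, all except let-7i, and 22.9% of all tested assays were lower at that level. The median change of the members was -1.34, beside -0.09 over all tested assays. For all 8 members both 1 week cards lay below both untreated cards, which was so for 40.4% of all tested assays. Leaving out any untreated or 1 week card also lowered the number of all tested assays called. With each card centred on all its determined assays, 30.7% of them were called in either direction, beside 32.5% in the main fit. Without replicate 1 of the untreated or of the 1 week cards no member passed, without replicate 2 of the 1 week cards 1 did, without replicate 2 of the untreated cards 3 did, let-7f not among them, and without either 8 week card 5 did, and with each card centred on all its determined assays 6 did.

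At 4 weeks let-7f and let-7g were called lower and none of the 8 higher, with 16.9% of tested assays called lower. The median change of the members was 0.38 against 0.03 over all tested assays, and 6 of 8 estimates were above 0. Without replicate 2 of the untreated cards the median turned to -0.17, with 0.13 over all tested assays, without replicate 2 of the 4 week cards it was 0.16, and without replicate 1 of the untreated cards 0.80. For 5 members the cards did not overlap (let-7b, let-7c and let-7i higher, let-7f and let-7g lower), a separation that 68.1% of tested assays showed in either direction. Neither call passed when the cards were scaled to the control RNAs (let-7f -0.39, let-7g -0.85), nor without replicate 1 of the untreated or replicate 2 of the 4 week cards. Without replicate 2 of the untreated cards or either 1 week card, let-7g alone passed.

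At 8 weeks limma called none of the 8 members (3.01% of tested assays were called in either direction), and 1 member, let-7g, had an unadjusted p under 0.05, as did 24.1% of tested assays. The median change was 0.28 beside -0.04 over all tested assays, and single cards decided its sign. It was -0.091 without replicate 2 of the untreated cards and -0.038 without replicate 2 of the 8 week cards, and it was 0.67 and 0.79 without replicate 1 of the untreated and of the 8 week cards. Both 8 week cards were below both untreated cards for 2 members, let-7f and let-7g, and for 32.5% of tested assays. The 8 week cards of let-7b differed from each other by 2.12 and those of let-7c by 1.70, more than either mean differed from untreated.

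**Figure D2:**
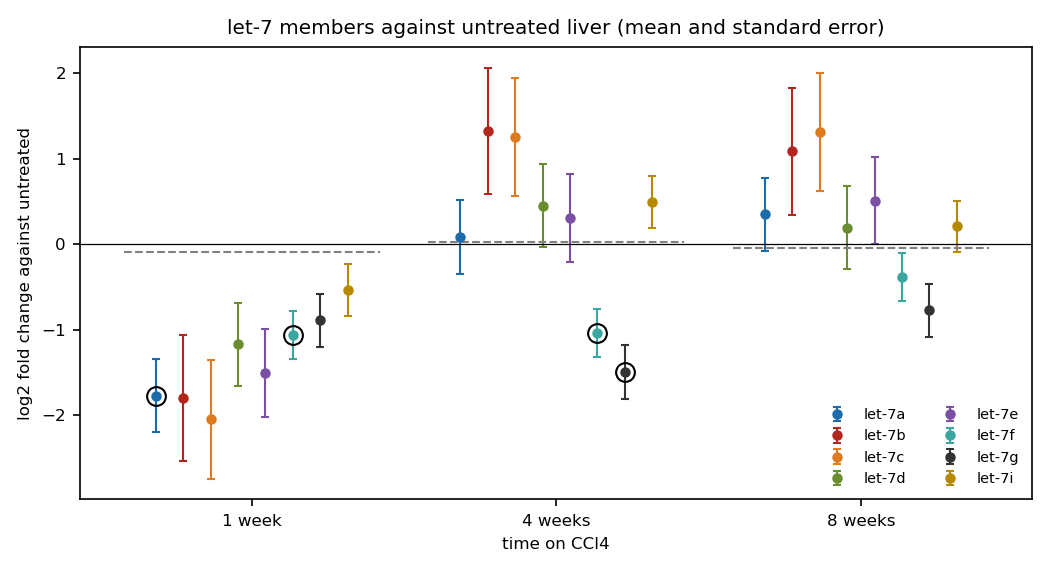
Change of each let-7 member against untreated liver (vertical axis, log2 fold change with the standard error of the limma model, 2 cards a group) at 1, 4 and 8 weeks. Circled points passed at an adjusted p of 0.05 and dashed lines are the median over the 166 tested assays; all 8 points lie below 0 at 1 week, and only let-7f and let-7g lie below 0 at 4 and 8 weeks.

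Between 1 and 4 weeks most of the family rose. Against 1 week, 6 members were called higher at 4 weeks (21.7% of tested assays were) and none lower. let-7c rose by 3.30 (SE 0.69, limma adjusted p = 0.00903) and let-7b by 3.13 (SE 0.74, limma adjusted p = 0.0148). The rises of let-7a (1.85), let-7e (1.81), let-7d (1.62) and let-7i (1.03) had limma adjusted p-values from 0.0147 to 0.0298. let-7f differed by 0.03 (limma adjusted p = 0.940) and let-7g by -0.60 (limma adjusted p = 0.145). Both 4 week cards exceeded both 1 week cards for these 6 members and for 36.7% of tested assays. No member passed without replicate 1 of the 1 week cards or replicate 2 of the 4 week cards, 2 passed without replicate 2 of the 1 week cards, and over these omissions the smallest rise, that of let-7i, lay between 0.92 and 1.27. Leaving out replicate 1 of the 4 week cards gave a lower rise for let-7i, 0.86. Without normalization let-7b and let-7c alone passed, let-7d and let-7e did not pass with undetermined wells at Ct 40, let-7e not with quantile normalization and let-7i not with cards centred on all determined assays.

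At 8 weeks 4 members were above their 1 week level by the same test, with 10.2% of tested assays called higher. These were let-7c (3.37, limma adjusted p = 0.0157), let-7b (2.89, limma adjusted p = 0.0332), let-7a (2.12, limma adjusted p = 0.0157) and let-7e (2.02, limma adjusted p = 0.0332). For 7 members, all except let-7g, both 8 week cards were above both 1 week cards, as for 35.5% of tested assays. The 4 calls were lost without either 1 week card or without replicate 2 of the 8 week cards. Those of let-7b and let-7e did not pass with quantile normalization or with undetermined wells at Ct 40, that of let-7c not with the latter, and those of let-7a and let-7e not without normalization. Between 8 and 4 weeks no member was called by limma (1.2% of tested assays were), and 1 (let-7f) had an unadjusted p under 0.05, as did 16.3% of tested assays. By the limma F test over the 3 times, 6 members differed among the groups, let-7a, let-7b, let-7c, let-7e, let-7f and let-7g, when 54.2% of all tested assays did, and let-7d (adjusted p = 0.0748) and let-7i (0.0797) did not pass. The count was 3 with quantile normalization, 2 with no normalization, 4 with the replicate number as a block and 0 with undetermined wells at Ct 40. These settings called 33.1%, 13.9%, 43.4% and 24.5% of all tested assays. Beside 64.7% and 60.8% of all tested assays, a mean Ct below 32 and a variance trend gave all 8 members. Without either 1 week card the F test called none of them, and without replicate 2 of the 4 week cards it called 2.

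Distances between members were also compared card by card. Differences between assays on 1 card do not change under a scaling by 1 constant per card, though quantile normalization can change them. The Ct of let-7c exceeded that of let-7g by 3.24 and 4.68 on the untreated cards and by 5.22 and 5.02 at 1 week. At 4 weeks the excess was 1.61 and 0.82, and at 8 weeks 2.97 and 0.77. The gap was widest at 1 week and at 4 weeks lay below every untreated and 1 week card (this pair was chosen after its values were seen). let-7e had a higher Ct than let-7g on all untreated and 1 week cards, by 0.68 to 1.92, a lower one by 0.29 and 0.99 at 4 weeks, and at 8 weeks one card of each kind (0.65 higher and 0.90 lower). The distance between let-7a and let-7e had an SD of 0.19 over the 8 cards, the smallest of the 28 pairs, and that between let-7c and let-7g an SD of 1.83, the largest.

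With each card centred on the mean of the 8 members, 0 of 24 values against untreated passed limma, 2 of them (let-7f and let-7g at 4 weeks, -1.21 and -1.67) at an unadjusted p under 0.05, a level that 31.9% of all tested assays reached at 4 weeks. In that fit 39.2%, 9.64% and 0% of tested assays were called at 1, 4 and 8 weeks. Between 1 and 4 weeks, let-7c (1.78, limma adjusted p = 0.0185) and let-7b (1.61, limma adjusted p = 0.0359) rose relative to the family mean, and let-7g (-2.12, limma adjusted p = 0.00957) and let-7f (-1.49, limma adjusted p = 0.0351) fell, when 56% of tested assays were called. From 1 to 8 weeks let-7c (1.70, limma adjusted p = 0.0231) rose and let-7g (-1.55, limma adjusted p = 0.0414) fell on this scale, with 56.6% of tested assays called. The 4 of 8 and 2 of 8 members called were not above these shares, so nothing particular to the family is read from them.

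**Figure D3:**
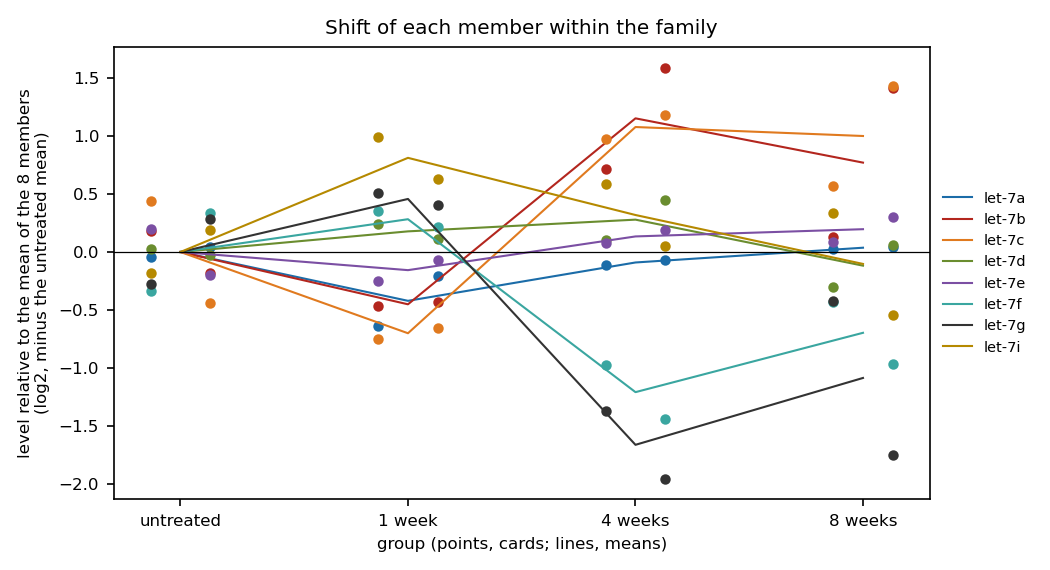
Level of each let-7 member relative to the mean of the 8 members on the same card (vertical axis, log2 scale, with the mean of the 2 untreated cards set to 0) in the 4 groups. Points are cards, with replicate 1 on the left, and lines join group means; from 1 to 4 weeks let-7b and let-7c move up and let-7f and let-7g move down.

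Over the 8 cards the level of let-7e followed the mean of the other members with a Pearson r of 0.99, let-7a with 0.98, let-7c and let-7d with 0.95, let-7b with 0.91 and let-7i with 0.80. For let-7f the r was 0.45 and for let-7g -0.12. These are descriptions over 8 cards that share a centring. let-7b and let-7c, whose genes adjoin on chromosome 15, differed from untreated by -1.80 and -2.05 at 1 week and by 1.33 and 1.26 at 4 weeks. let-7a, let-7d and let-7f share the group of genes on chromosome 13, and their differences from untreated were -1.77, -1.17 and -1.06 at 1 week and 0.09, 0.46 and -1.03 at 4 weeks. let-7c can also come from chromosome 16, let-7a from chromosome 9 and let-7f from chromosome X.

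The replicate cards also differed by member. Between the 2 untreated cards, replicate 2 was lower than replicate 1 by 1.74 for let-7c, 1.26 for let-7e and 1.22 for let-7b, and the smallest such gap was 0.18, for let-7f. Between the 8 week cards the sign was turned for those members, and replicate 2 was higher by 1.70 for let-7c, 1.05 for let-7e and 2.12 for let-7b. The members with the widest gaps within pairs thus included those with the largest changes between groups.

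Among the other assays of the same primary transcripts or seed, 6 were followed as a fixed list. miR-98, with the let-7 seed, had levels of -3.94 and -3.64 on the untreated cards, then -4.95 and -5.36 on the 1 week cards, -3.87 and -3.67 on the 4 week cards, and -4.07 and -4.09 on the 8 week cards. The 1 week cards were the lowest. miR-98 fell by 1.37 at 1 week (SE 0.29, limma adjusted p = 0.0129), differed by 0.03 at 4 weeks and rose by 1.39 from 1 to 4 weeks (limma adjusted p = 0.00903). let-7f, whose second gene adjoins Mir98, had no such rise.

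At 1 week 1 of these 6 was called lower (miR-98) and 1 higher (miR-125a-5p), when 14.5% of all tested assays were called lower and 18.1% higher. miR-125a-5p, encoded 367 bases from let-7e, rose by 1.19 at 1 week (limma adjusted p = 0.0285), when the difference of let-7e was -1.50, and was 0.90 above untreated at 4 weeks (limma adjusted p = 0.0734). miR-99b, the nearest neighbour of let-7e, differed by -0.29 at 1 week and by 1.41 at 4 weeks (limma adjusted p = 0.0544), and rose by 1.70 between them (limma adjusted p = 0.0218). miR-99a, the neighbour of Mirlet7c-1, differed by -0.85 at 1 week (limma adjusted p = 0.0640), and miR-100, the neighbour of Mirlet7a-2, by -0.82 (limma adjusted p = 0.117). miR-125b-5p, transcribed with let-7 genes, differed by -1.24 at 1 week (limma adjusted p = 0.105) and rose by 1.95 from 1 to 4 weeks (limma adjusted p = 0.0218). At 4 and at 8 weeks none of the 6 was called by limma against untreated, when 30.1% and 3.01% of all tested assays were called in either direction.

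The 5 assays outside the family whose levels were most like the mean of the 8 members over the 8 cards were miR-744 (Pearson r 0.96), miR-28 (0.95), miR-122 (0.94), miR-99a (0.94) and miR-676 (0.93). Their changes at 1 week, which the choice by likeness to the family partly fixes, were -2.31 for miR-744, -1.35 for miR-28, -1.20 for the hepatocyte microRNA miR-122, -0.85 for miR-99a and -0.998 for miR-676, and are given as a description.

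Markers of other cell types moved over the same times. The summed level of 4 leukocyte microRNAs, such as the myeloid miR-223, lay between 3.58 and 3.95 on untreated, 5.55 and 5.84 on 1 week, 6.03 and 6.30 on 4 week and 4.65 and 4.85 on 8 week cards, and 3 of 4 were called higher at 1 week and 3 of 4 at 4 weeks, when 18.1% and 13.3% of all tested assays were. That of 3 hepatocyte microRNAs (miR-122, miR-192 and miR-194) was 7.78 to 7.83, 7.0 to 7.05, 6.25 to 6.42 and 7.04 to 7.28 in the same order, and none was called lower at 1 week and 2 of 3 at 4 weeks, beside 14.5% and 16.9% of all tested assays. Of 4 mesenchymal microRNAs none was called at 1 week and 2 were called higher at 4 weeks, with summed levels of 3.39 to 3.56, 3.46 to 3.55, 3.78 to 4.22 and 3.38 to 3.69. All 11 markers were determined on every card. The part of cell composition in the let-7 results was not tested.

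The let-7 values also depend on what each card is scaled to. The control RNA U6 rose by 2.38 at 1 week (limma adjusted p = 0.00800) and fell by 1.50 at 4 weeks (limma adjusted p = 0.0417), snoRNA202 fell by 1.39 at 1 week (limma adjusted p = 0.0139), and snoRNA135 differed by -0.27 or less in size at every time and was not called. At 1 week all 8 members stayed below untreated under every scaling and with each card left out, in 128 of 128 values. Not all of these were separate checks. With undetermined wells at Ct 40, or without replicate 1 of the 4 week or of the 8 week cards, the members' median equalled that of the main fit. The median change of all assays moved with the scaling, at 1 week from -0.60 with no normalization to -0.09, and at 4 weeks from -0.82 with no normalization to 0.67 with the control RNAs. A scaling that moves all assays of a card by 1 constant cannot change the median of the members minus that of all assays. Under the 4 settings that could (quantile normalization, a mean Ct below 32, no Ct limit and undetermined wells at Ct 40) it lay between -1.27 and -0.99 for 1 week, 0.33 and 0.54 for 4 weeks and 0.28 and 0.40 for 8 weeks. Single cards moved it further, to between -1.78 and -0.89 for 1 week, and without replicate 2 of the untreated cards it was -0.30 for 4 weeks and 0.0050 for 8 weeks. Without replicate 1 of the untreated cards it was 0.74 for 4 weeks and 0.71 for 8 weeks. For 8 weeks it was 0.70 without replicate 1 and 0.0575 without replicate 2 of the 8 week cards.

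**Figure D4:**
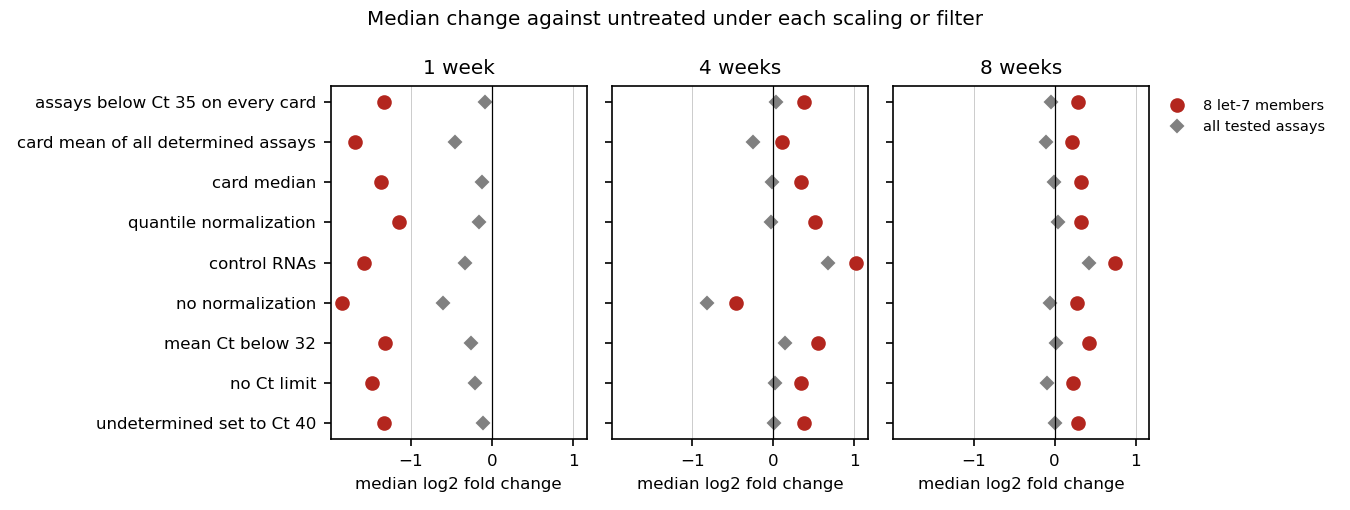
Median change against untreated (horizontal axis, log2 fold change) of the 8 let-7 members and of all tested assays under each scaling of the cards or filter (vertical axis) at 1, 4 and 8 weeks. Scalings by 1 constant per card move both points alike, to the far left at 4 weeks with no normalization (-0.46 for the members), and their distance could change only under quantile normalization and the 3 choices on high or undetermined Ct.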

How the data were processed

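Total liver RNA was reverse transcribed and run on TaqMan Array Rodent MicroRNA A Cards, 2 per group. The deposited values are raw Ct, 1 column per card and not normalized, and undetermined wells are empty. How the Ct threshold was set is not given in the sources used here. A second deposited table holds the fold changes of the authors' own comparisons and was not used.

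Levels were the card mean Ct over 149 assays below 35 on every card, minus the assay Ct. Of 168 assays determined on all 8 cards, 166 averaged below Ct 35 and entered the test, made in R 4.3.3 with limma 3.58.1 (lmFit, eBayes, 4 groups in 1 model, 4 residual and 3.47 prior degrees of freedom), with Benjamini-Hochberg adjustment within each comparison at 0.05. The number of cards limits the precision. The procedure was tested on simulated data. Named assays were all members, the fixed neighbour and control lists and the 5 assays most correlated with the family. Members and lists were chosen with earlier results of these data known. Sequences and positions came from RefSeq (GRCm38.p6); no build is named with the Ct values. Alternatives were other scalings and Ct limits, undetermined wells at Ct 40, a variance trend, fits to only the groups compared, the replicate number as a block, and each card left out in turn. Plots used matplotlib 3.10.9.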

Additional observations from a re-analysis of the deposited data

Results flagged for a closer look

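For 6 members the effect of CCl4 at 4 weeks differed from that at 1 week by the limma test of the difference itself, at an adjusted p of 0.05, when 47% of all tested assays differed so and 21.7% were higher. The differences, 4 weeks minus 1 week on the log2 scale, were 1.85 for let-7a, 3.13 for let-7b, 3.30 for let-7c, 1.62 for let-7d, 1.81 for let-7e and 1.03 for let-7i, and for each both 4 week cards lay above both 1 week cards, as for 36.7% of all tested assays. None of the 6 passed without replicate 1 of the 1 week cards or replicate 2 of the 4 week cards, and 2 did without replicate 2 of the 1 week cards. For 4 members the effect at 8 weeks differed from that at 1 week in the same way, by 2.12 for let-7a, 2.89 for let-7b, 3.37 for let-7c and 2.02 for let-7e, when 24.1% of all tested assays differed so and 10.2% were higher. None of the 4 passed without either 1 week card or without replicate 2 of the 8 week cards. Both sets of differences rest on the same 2 cards at 1 week, so they are not independent of each other.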

How the results depend on the processing

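Each count below is the number of the 8 let-7 members called by limma. At 1 week (2 called) it was 6 with cards centred on all determined assays, 4 with the card median, 5 with a mean Ct below 32, no Ct limit, a variance trend or only the groups compared, and 0 with no normalization (4 at an unadjusted p under 0.05); with single cards left out it ran from 0 to 5. At 4 weeks (2 called) it was 1 with all determined assays or only the groups compared, and 0 with the control RNAs (3 unadjusted) or no normalization (2 unadjusted), and 0 to 2 with cards left out; without replicate 2 of the untreated or either 1 week card it was 1. At 4 weeks against 1 week (6 called) it was 2 with no normalization, and 0 to 6 with cards left out. At 8 weeks against 1 week (4 called) it was 2 with quantile or no normalization, 7 with the control RNAs and 1 with undetermined wells at Ct 40, and 0 to 5 with cards left out. The F test (6 called) gave 3 with quantile normalization, 2 with none and 0 with undetermined wells at Ct 40 (7 unadjusted), and 0 to 7 with cards left out. Relative to the family mean, 0 to 1 of 24 values passed with cards left out. The calls over all tested assays moved too. At 1 week 51 of 166 were called with all determined assays and 66 with only the groups compared. At 4 weeks these settings gave 39 and 37, and the control RNAs 56. At 8 weeks against 1 week it was 20 with quantile normalization, 56 with the control RNAs and 15 of 188 with undetermined wells at Ct 40. By the F test the same settings gave 55, 103 and 46 of 188. A mean Ct below 32 (86 of 133) and a variance trend (101) called all 8 members by the F test. At 1 week 54 of 166 were called, but 5 with no normalization and 17 to 59 with cards left out. At 4 weeks the numbers were 50, 10 and 22 to 51, at 4 weeks against 1 week 78, 29 and 27 to 74, at 8 weeks against 1 week 40, 8 and 3 to 49, and by the F test 90, 23 and 37 to 87. Where a card was left out, the lone card of its group was assumed to vary like the others. Beyond the smaller number of cards, the cause of these changes was not tested.

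Signs turned only for values that had not passed. At 4 weeks against untreated let-7a was -0.19 with all determined assays and -0.76 with no normalization, which also gave -0.39 for let-7d, -0.54 for let-7e and -0.35 for let-7i. let-7f at 4 weeks against 1 week was -0.32 with quantile and -0.31 with no normalization, and at 8 weeks against untreated 0.078 with the control RNAs, which gave 0.28 for let-7g at 4 weeks against 1 week. With cards left out, the range at 4 weeks was -0.32 to 0.45 for let-7a, -0.017 to 0.89 for let-7d and -0.33 to 0.91 for let-7e. At 8 weeks it was -0.068 to 0.78 for let-7a, -0.40 to 0.80 for let-7d, -0.13 to 1.12 for let-7e and -0.046 to 0.43 for let-7i. Against 1 week it was -0.11 to 0.23 for let-7f at 4 weeks and -0.14 to 0.37 for let-7g at 8 weeks.

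The labels do not say whether the replicate numbers pair the cards, and the values showed no consistent pairing. The correlation across 166 assays of the difference between replicates ran from -0.50 (untreated and 8 weeks) to 0.43 (4 and 8 weeks). With the replicate number as a block, 2 members were called at 1 week, 2 at 4 weeks, 6 at 4 weeks against 1 week and 4 at 8 weeks against 1 week, as without it, and the F test called 4 in place of 6; none of the 40 calls of single members against untreated or 1 week changed.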
